A study of Homo sapiens with 6 samples.

Results

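In HFL-1 cells, fibroblasts cultured from human fetal lung, TAZ was silenced with either of 2 siRNAs (siTAZ #1 and siTAZ #2), and control cells received an siRNA without a target (siNTC). TAZ is the transcriptional coactivator encoded by WWTR1, and total RNA was sequenced 48 h after transfection. Each group held 2 libraries, 6 in all, and apart from the siRNA the groups shared the line, the growth conditions and the transfection reagent. Here the levels of 53 mitotic genes are described, of 23355 gene symbols counted. The genes were chosen by name for their role in cell division, with earlier results of these data known, so their counts are a description. They cover cyclins and CDK1, mitotic kinases, the spindle checkpoint, the kinetochore, kinesins and spindle proteins. Cytokinesis factors, chromosome proteins, the anaphase-promoting complex and the transcription factor FOXM1 are also among them. Because HFL-1 is a single line and each siRNA was read after a transient transfection at 1 time, the values describe this line at that time.

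Cells enter mitosis when CDK1, bound by cyclin B, is switched on. Aurora and Polo-like kinases then guide spindle assembly, kinetochores attach the chromosomes to spindle microtubules, and the spindle checkpoint holds back the anaphase-promoting complex until all are attached. Most of these genes are transcribed in a wave that peaks in G2 and mitosis, held down in resting cells by the DREAM complex and driven in dividing cells by MuvB with MYBL2 (B-MYB) and FOXM1, all of which act through CHR elements, and by NF-Y, which binds CCAAT boxes. Resting fibroblasts hold little of these mRNAs. A bulk level therefore cannot tell fewer dividing cells from less mRNA per dividing cell.

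The libraries held between 15648055 and 32078188 counts, and all 53 genes passed the filter on low counts. WWTR1 was at 132 and 131 CPM with siNTC, 26.4 and 28.4 CPM with siTAZ #1, and 46.1 and 43.1 CPM with siTAZ #2, so both siTAZ groups lay below siNTC, and the siTAZ #1 libraries were the lower of them (log2 difference of siTAZ #1 from siTAZ #2 -0.70 ± 0.098, FDR 0.00499). All 12 fibroblast markers examined, among them COL1A1, COL3A1 and VIM, had counts in every library, and their summed level was 31797 to 43616 CPM. Summed levels were 44.5 to 66.9 CPM for 9 epithelial markers, 26.7 to 47.4 CPM for 6 endothelial markers and 38.3 to 75.8 CPM for 7 blood cell markers. Most of the endothelial sum came from TEK and most of the blood cell sum from CD68, while the lung epithelial markers SFTPB and SFTPC had at most 2 counts and PTPRC and CD3E at most 3 in any library. The endothelial and blood cell sums were lowest in the siTAZ #2 libraries, and their part in the results was not tested. In siTAZ #1 replicate 2, counts were nearly missing for genes that follow RANGAP1 on chromosome 22 through the end of chromosome Y, a stretch of 578 tested genes that holds none of the 53. The common dispersion, a part of the spread shared by all genes, was 0.0807 with these genes and 0.0164 without them, and the median log2 fold change of the 53 genes with siTAZ #1 was 0.27 with and 0.25 without. FDR denotes the p-value of edgeR's quasi-likelihood test, adjusted by Benjamini-Hochberg over the 14053 genes tested, and a gene is said to have risen or fallen where its FDR was under 0.05. CPM is a count scaled to the library's TMM-adjusted total, log2 differences are between group means and carry their standard error, and n = 2 libraries per group. With 2 libraries a group, no permutation of libraries could reach a p under 0.05, so the calls rest on a spread shared across genes and groups.

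Promoters of the mitotic genes are shown because the regulators of this wave act there. RefSeq promoters (GRCh38.p14, 250 bases before to 50 after the annotated start) were matched for 44 of the 53 genes, all but AURKA, BIRC5, BUB3, TTK, TPX2, RACGAP1, CDCA2, UBE2C and FOXM1. The 120 bases before the start are printed, on the strand of the gene, for the gene with the most counts in each role where it had a promoter and a single annotated start, which gave 5. Capitals mark CCAAT, which reads ATTGG when it lies on the other strand, and the CHR words, which are TTTAAA, the same on either strand, and TTTGAA, which reads TTCAAA when reversed.
CCNB1, chr5:69167030-69167149, + strand: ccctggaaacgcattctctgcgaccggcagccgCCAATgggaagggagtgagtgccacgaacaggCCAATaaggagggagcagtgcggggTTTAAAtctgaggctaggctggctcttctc
CENPF, chr1:214603075-214603194, + strand: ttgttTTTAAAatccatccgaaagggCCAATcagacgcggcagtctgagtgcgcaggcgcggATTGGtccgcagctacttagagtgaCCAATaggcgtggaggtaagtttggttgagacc
KIF20A, chr5:138178992-138179111, + strand: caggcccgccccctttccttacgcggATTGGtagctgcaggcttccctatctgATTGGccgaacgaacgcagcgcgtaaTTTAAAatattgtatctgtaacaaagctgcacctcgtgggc
ANLN, chr7:36389742-36389861, + strand: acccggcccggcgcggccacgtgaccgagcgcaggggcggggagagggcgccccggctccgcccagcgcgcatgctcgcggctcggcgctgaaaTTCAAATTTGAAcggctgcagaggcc
CDC20, chr1:43358861-43358980, + strand: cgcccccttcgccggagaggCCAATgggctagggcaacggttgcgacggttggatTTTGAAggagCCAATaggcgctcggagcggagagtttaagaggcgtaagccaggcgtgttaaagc

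CCNB1 carried 2 CCAAT boxes followed by a CHR word nearer to the start, CENPF carried CCAAT boxes in both orientations and KIF20A 2 reversed ones (ATTGG), CDC20 had its CHR word between 2 CCAAT boxes, and ANLN held a pair of CHR words back to back with no CCAAT in this stretch. Over the whole window and both strands, CCAAT was found in 33 of the 44 promoters (75.0%), against 36.8% of the 9685 promoters of tested genes and 35.7% of all 27305 promoters. A CHR word was found in 37 (84.1%), against 15.9% of tested genes and 24.3% of all promoters, and both motifs in 29 (65.9%), against 6.42% and 9.49%. At least 2 CCAAT matches were present in 22 of the promoters (50%), against 13.6% of those of tested genes. The TEAD word GGAATG, which is read by the partners of TAZ, was found in 5 (11.4%), against 11.2% of tested genes and 14% of all promoters. Of the CCAAT matches, 56 of 76 lay in the 120 bases before the start, as did 38 of 59 CHR matches, at median positions of -83 and -30. With only the bases before the start, the CHR words were left in 31 promoters (70.5%) and both motifs in 26 (59.1%). CDC25C, TACC3 and CKAP2 had neither motif in the window of the RefSeq entry used, the first listed for the gene. Other annotated starts were not searched. A match gives letters only, and whether any protein bound there was not measured.

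**Figure D1:**
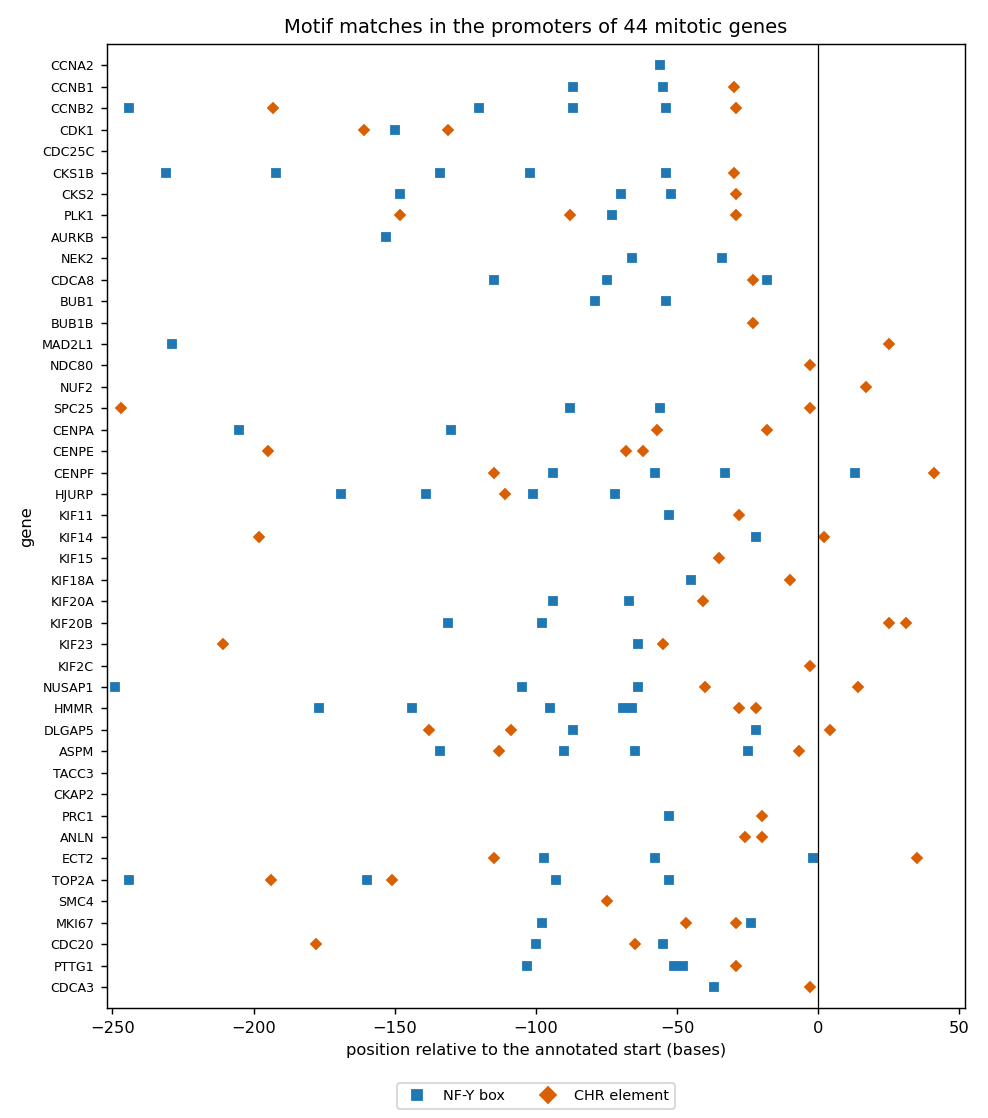
Matches to the CCAAT box (squares, NF-Y box) and the CHR words (diamonds) in the 44 RefSeq promoters, by position relative to the annotated start in bases, with 1 row per gene. Most matches sit left of the start, 56 of 76 squares and 38 of 59 diamonds within its last 120 bases, and 3 rows hold neither.

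Levels of the mitotic genes differed between the siRNAs. Together the 53 genes took 0.547% and 0.545% of the counts with siNTC, 0.576% and 0.653% with siTAZ #1, and 0.287% and 0.256% with siTAZ #2. Summed, they were at 5546 and 5575 CPM with siNTC, 5813 and 6422 CPM with siTAZ #1, and 2815 and 2540 CPM with siTAZ #2. Each siTAZ #1 library lay above both siNTC libraries, and each siTAZ #2 library lay far below both. Relative to the siNTC mean, the median gene was at -0.91 and -1.08 on the log2 scale in the siTAZ #2 libraries and at 0.21 and 0.32 in the siTAZ #1 libraries. In both siTAZ #2 libraries 0 of the 53 genes lay above the siNTC mean, and in both siTAZ #1 libraries 40 did.

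**Figure D2:**
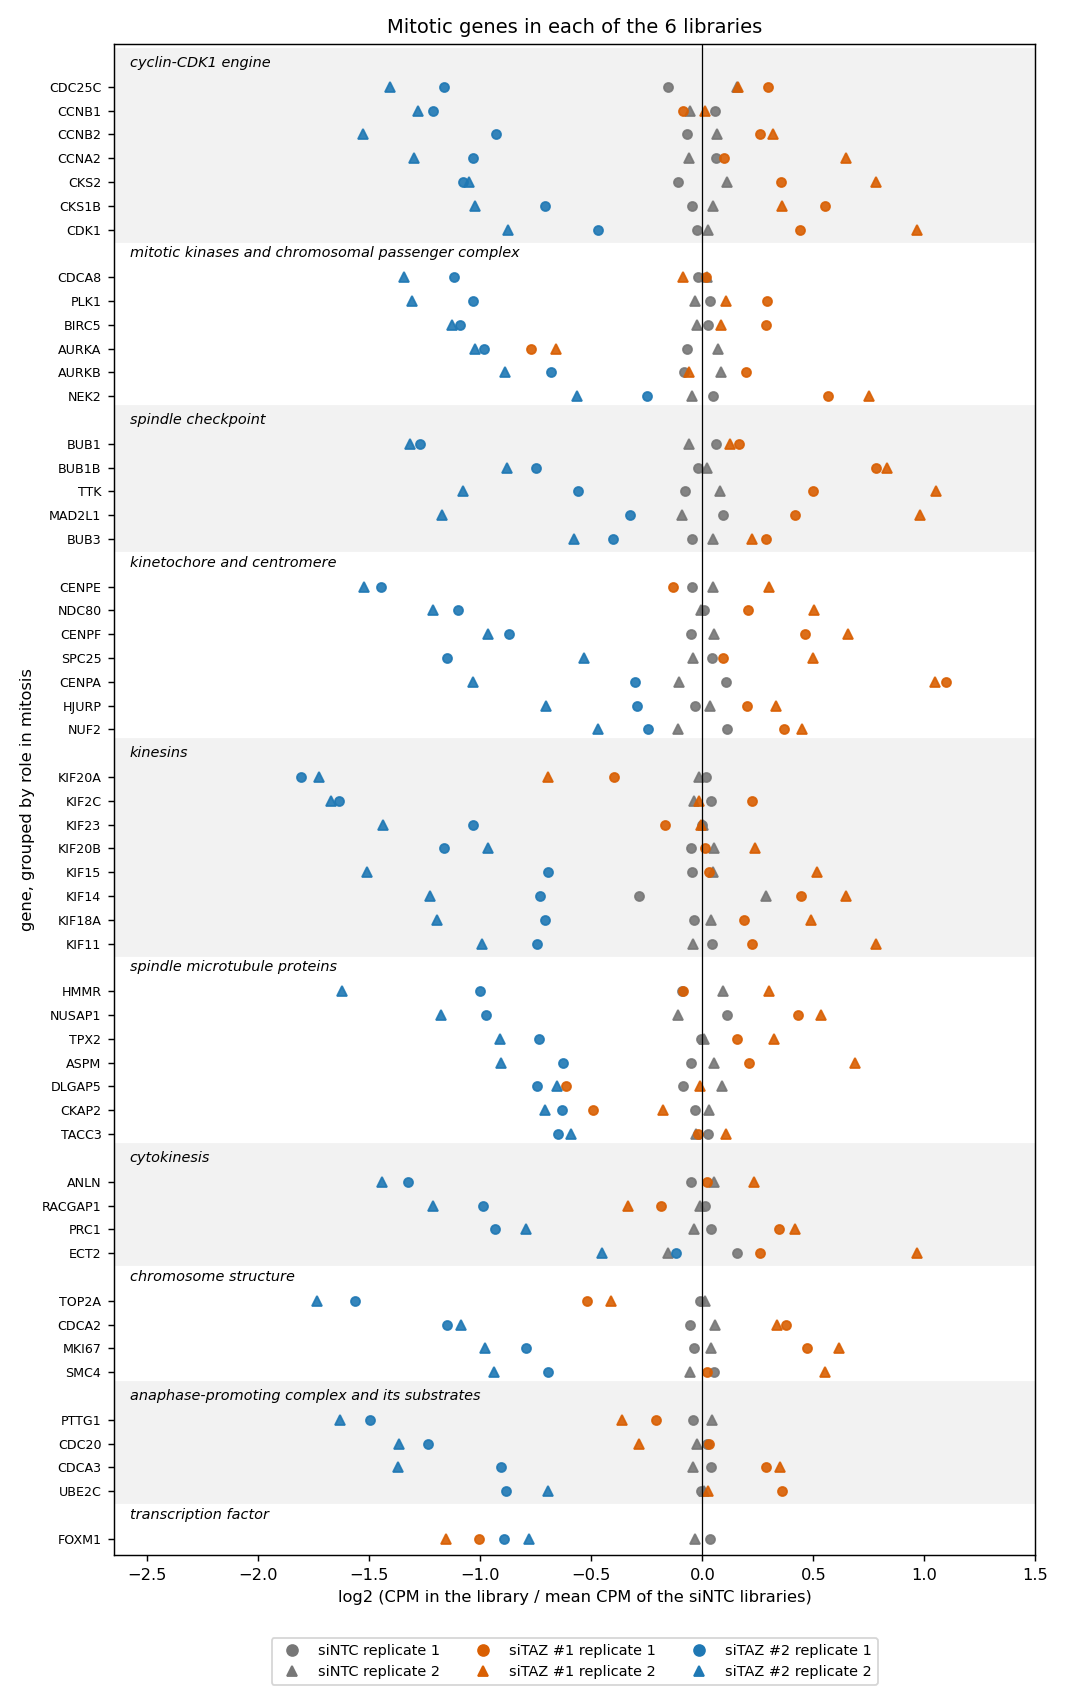
Level of each of the 53 mitotic genes in each library, as log2 of its CPM over the siNTC mean, with genes grouped by role and ordered within a role by their siTAZ #2 value. Circles are replicate 1 and triangles replicate 2. The siTAZ #2 points lie left of the siNTC points in 52 rows, ECT2 being the exception, while the siTAZ #1 points lie right of them in 32 rows and left in 8.

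With siTAZ #2, 43 of the 53 genes fell against siNTC, where 14.4% of all genes tested fell, and 0 rose, where 14.1% rose. No gene was higher at an unadjusted p under 0.05 either, and neither DESeq2 nor edgeR's exact test called one higher. All 53 had a log2 fold change below 0, from -1.77 for KIF20A to -0.29 for ECT2 with a median of -1.0, beside 0.014 over all genes tested. In 52 both siTAZ #2 libraries lay below both siNTC libraries, which was so for 35.5% of all genes tested. The 10 that did not pass were CDK1, NEK2, MAD2L1, TTK, NUF2, SPC25, CENPA, HJURP, DLGAP5 and ECT2, at log2 fold changes of -0.85 to -0.29. DESeq2 called 50 of the 53 lower (94.3%, beside 18% of all genes tested) and the exact test on 4 libraries 51 (96.2%, beside 23%). Without the stretch of near-missing counts 50 were lower (94.3%, beside 19.2%). Without siNTC replicate 1, siNTC replicate 2 or siTAZ #2 replicate 2, fewer genes passed, both among the 53 and over all genes tested. All 53 stayed below 0 in each of these fits, at medians of -1.02, -0.94 and -0.95.

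With siTAZ #1, 4 genes fell (FOXM1, AURKA, KIF20A and TOP2A), beside 9.78% of all genes tested, and 7 rose (CENPA, BUB1B, NEK2, CENPF, MKI67, NUSAP1 and PRC1), beside 10.8%, which made 7.55% and 13.2% of the 53. The log2 fold changes ran from -1.08 for FOXM1 to 1.09 for CENPA, with 41 above 0, 12 below and a median of 0.27, beside 0.017 over all genes tested. Both siTAZ #1 libraries lay above both siNTC libraries for 32 genes and below for 8, which held for 33.2% and 31.1% of all genes tested. The calls rested on both siNTC libraries, and with either left out fewer genes passed, both among the 53 and over all genes tested. The median of the 53 was then 0.23 without siNTC replicate 1 and 0.27 without siNTC replicate 2, with 41 above 0 in each. FOXM1 ran from -1.16 to -0.92 over all alternatives. Without siTAZ #1 replicate 1 the counts were 4 lower and 19 higher, the latter 35.8% of the 53 beside 17% of all genes tested. Without the stretch of near-missing counts they were 5 and 15 (28.3% higher, beside 15.7%), by DESeq2 4 and 15 (28.3% higher, beside 14.8%), and by edgeR's exact test on 4 libraries 1 and 0 (0% higher, beside 3.63%). The share that rose, read against all genes tested, thus depended on the setting. FOXM1 was the 1 gene that the exact test called, so every other call with siTAZ #1 was lost in that test. Those lost included AURKA, TOP2A, BUB1B, CENPA, CENPF, NEK2 and MKI67.

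Compared directly, 49 of the 53 genes were higher with siTAZ #1 than with siTAZ #2, beside 15.2% of all genes tested, and 0 were lower, beside 13.4%. At an unadjusted p under 0.05, 1 was lower, FOXM1, and DESeq2 and the exact test called 0 lower. The differences ran from -0.24 for FOXM1 to 1.78 for KIF2C with a median of 1.31, beside -0.009 over all genes tested. In 52 genes both siTAZ #1 libraries lay above both siTAZ #2 libraries, as in 32.6% of all genes tested. FOXM1, AURKA, CKAP2 and DLGAP5 were the 4 that did not pass. Over the libraries left out in turn the median stayed between 1.21 and 1.385, with 52 genes above 0 in each fit. Both comparisons with siNTC share its 2 libraries, so their values for a gene are given side by side below and not correlated. This comparison does not use the siNTC means.

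In the cyclin-CDK1 engine, 6 of 7 genes fell with siTAZ #2, beside 14.4% of all genes tested. All 7 were higher with siTAZ #1 than with siTAZ #2, beside 15.2%. CCNB1, which encodes cyclin B1, the partner that switches CDK1 on at mitotic entry, was at 224 and 207 CPM with siNTC, 203 and 217 CPM with siTAZ #1, and 92.6 and 88.4 CPM with siTAZ #2. The siTAZ #1 libraries overlapped the siNTC pair and the siTAZ #2 libraries lay far below both, with a log2 fold change of -1.25 ± 0.086, FDR 0.000743 for siTAZ #2 and -0.039 ± 0.084, FDR 0.777 for siTAZ #1. CKS2, a small subunit that binds CDK1 and helps it act on its substrates, was at 61.2 and 71.6 CPM with siNTC, 84.8 and 114 CPM with siTAZ #1, and 31.1 and 31.7 CPM with siTAZ #2. The 3 groups did not overlap: CKS2 fell 2.11-fold with siTAZ #2 (-1.08 ± 0.17, FDR 0.00733), a call lost without siNTC replicate 2 or siTAZ #2 replicate 1, and was at 0.58 ± 0.17 with siTAZ #1 (FDR 0.0595). CDK1 itself was at -0.67 with siTAZ #2 (FDR 0.0708) and 0.73 with siTAZ #1 (FDR 0.0666), with 64.7 and 93.5 CPM in the siTAZ #1 libraries. CCNA2, CCNB2, CDC25C and CKS1B had log2 fold changes of -1.35 to -0.87 with siTAZ #2. With siTAZ #1 the call count in this role was 0, with 3 higher at an unadjusted p under 0.05. DESeq2 called 3 higher and the exact test 0, beside 14.8% and 3.63% of all genes tested.

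Of the 6 mitotic kinases and chromosomal passenger proteins, 5 fell with siTAZ #2, beside 14.4% of all genes tested. AURKA, the Aurora kinase of centrosomes and spindle poles, was at 75.0 and 82.6 CPM with siNTC, 45.9 and 49.6 CPM with siTAZ #1, and 39.5 and 38.5 CPM with siTAZ #2. Both siTAZ groups lay below siNTC without overlap: AURKA fell with siTAZ #1 (-0.72 ± 0.11, FDR 0.00931) and with siTAZ #2 (-1.02 ± 0.11, FDR 0.00240), and the siRNAs differed by 0.29 ± 0.11 (FDR 0.101). NEK2, a kinase that separates centrosomes, was at 28.5 and 26.7 CPM with siNTC, 41.0 and 46.8 CPM with siTAZ #1, and 23.1 and 18.5 CPM with siTAZ #2. It rose with siTAZ #1 (0.67 ± 0.16, FDR 0.0332), and had a log2 fold change of -0.41 ± 0.16, FDR 0.106 with siTAZ #2. BIRC5, which encodes survivin of the chromosomal passenger complex, was at 130.3 and 126 CPM with siNTC, 157 and 136 CPM with siTAZ #1, and 59.8 and 58.4 CPM with siTAZ #2. Its siTAZ #2 libraries lay far below siNTC (-1.12 ± 0.096, FDR 0.00122), while the siTAZ #1 libraries lay above siNTC (0.19 ± 0.095, FDR 0.212). PLK1, AURKB and CDCA8 fell with siTAZ #2 by 0.79 to 1.24 on the log2 scale and were between -0.036 and 0.20 with siTAZ #1.

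Among the 5 spindle checkpoint genes, all 5 were higher with siTAZ #1 than with siTAZ #2, beside 15.2% of all genes tested. With siTAZ #2, 3 fell, beside 14.4%, and with siTAZ #1, 1 rose, beside 10.8%. BUB1B, which encodes BubR1, a subunit of the complex that inhibits CDC20, was at 55.7 and 57.4 CPM with siNTC, 97.6 and 101 CPM with siTAZ #1, and 33.4 and 30.5 CPM with siTAZ #2. The groups were well apart: BUB1B rose 1.75-fold with siTAZ #1 (0.81 ± 0.10, FDR 0.00515) and fell 1.77-fold with siTAZ #2 (-0.82 ± 0.10, FDR 0.00339). TTK, the Mps1 kinase that starts checkpoint signalling, was at 26.1 and 29.2 CPM with siNTC, 39.2 and 57.7 CPM with siTAZ #1, and 18.6 and 12.8 CPM with siTAZ #2. Neither change of TTK against siNTC passed (0.81, FDR 0.0752, and -0.81, FDR 0.0621), yet the siRNAs differed by 1.63 ± 0.26, FDR 0.00752. BUB3, the partner that carries BUB1 and BubR1 to kinetochores and the member with the most counts in this role, was at 139.5 and 149 CPM with siNTC, 176 and 168 CPM with siTAZ #1, and 109 and 96.3 CPM with siTAZ #2. Its fall with siTAZ #2 was the smallest that passed (-0.49 ± 0.093, FDR 0.0137), and it was lost without any of siNTC replicate 1, siNTC replicate 2 and siTAZ #2 replicate 2. BUB1 fell with siTAZ #2 (-1.30 ± 0.085, FDR 0.000687), and MAD2L1 did not pass (-0.70 ± 0.32, FDR 0.160), its siTAZ #2 libraries standing at 31.1 and 17.1 CPM.

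Of the 7 kinetochore and centromere genes, NDC80, CENPE and CENPF fell with siTAZ #2, and NUF2, SPC25, CENPA and HJURP did not pass. In all 7 both siTAZ #2 libraries lay below both siNTC libraries, beside 35.5% of all genes tested. DESeq2 and the exact test each called 6 lower, beside 18% and 23%. All 7 were higher with siTAZ #1 than with siTAZ #2, beside 15.2% of all genes tested. DESeq2 called 7 higher and the exact test 4, beside 18.8% and 5.26%. CENPF, a large protein of the outer kinetochore, was at 203 and 219 CPM with siNTC, 290.1 and 332 CPM with siTAZ #1, and 115 and 108 CPM with siTAZ #2. It rose with siTAZ #1 (0.56 ± 0.098, FDR 0.0139) and fell with siTAZ #2 (-0.92 ± 0.099, FDR 0.00229), with no overlap among the groups. CENPE, a kinesin motor that brings chromosomes to the spindle equator, was at 118 and 126 CPM with siNTC, 111 and 149.7 CPM with siTAZ #1, and 44.2 and 41.9 CPM with siTAZ #2. The siTAZ #1 libraries lay on either side of siNTC and those of siTAZ #2 far below it (-1.50 ± 0.15, FDR 0.00205). CENPA, the histone H3 variant that marks centromeres, was at 17.6 and 15.1 CPM with siNTC, 35.5 and 34.4 CPM with siTAZ #1, and 13.1 and 7.73 CPM with siTAZ #2. Both siTAZ #1 libraries lay above siNTC by 2.13-fold (1.09 ± 0.26, FDR 0.0367), the largest rise of the 53 genes, and with siTAZ #2 it was at -0.65 ± 0.26, FDR 0.121. HJURP, the chaperone that loads CENPA, was at 63.8 and 66.7 CPM with siNTC, 75.1 and 82.3 CPM with siTAZ #1, and 53.1 and 39.8 CPM with siTAZ #2. Its levels kept the same order of groups with smaller steps (-0.49 ± 0.16, FDR 0.0649 with siTAZ #2). NUF2, a subunit of the Ndc80 complex that holds microtubules, was at 23.1 and 19.8 CPM with siNTC, 27.7 and 29.4 CPM with siTAZ #1, and 17.9 and 15.3 CPM with siTAZ #2. Its partner NDC80 fell with siTAZ #2 (-1.17 ± 0.14, FDR 0.00333), whereas NUF2 had a log2 fold change of -0.37 ± 0.16, FDR 0.139, and the difference between these genes was not tested.

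All 8 kinesins fell with siTAZ #2, beside 14.4% of all genes tested, and all 8 were higher with siTAZ #1 than with siTAZ #2, beside 15.2%. KIF20A, a motor of the central spindle needed for cytokinesis, was at 315 and 308 CPM with siNTC, 236 and 192 CPM with siTAZ #1, and 88.8 and 93.9 CPM with siTAZ #2. It had the lowest log2 fold change of the 53 genes with siTAZ #2 (-1.77 ± 0.12, FDR 0.000693), 3.41-fold lower, and it also fell with siTAZ #1 (-0.54 ± 0.11, FDR 0.0247), a call lost in 7 of 18 alternatives, among them those without either siNTC or either siTAZ #2 library. Of its exon bases on GRCh37 (chromosome 5, 137514408 to 137523412, + strand), 5.35% overlap exons of BRD8 and CDC23 on the opposite strand, and CDC23, a subunit of the anaphase-promoting complex, rose with siTAZ #2 (0.63 ± 0.11, FDR 0.0101) and fell with siTAZ #1 (-0.69 ± 0.11, FDR 0.0105). The part of the overlap in the KIF20A counts was not tested. KIF2C, a kinesin that takes microtubules apart at kinetochores, was at 113 and 107 CPM with siNTC, 129 and 109 CPM with siTAZ #1, and 35.1 and 34.2 CPM with siTAZ #2. Its siTAZ #1 libraries overlapped those of siNTC, and its difference between the siRNAs was the largest of all 53 (1.78 ± 0.11, FDR 0.000717). The other 6, KIF11, KIF14, KIF15, KIF18A, KIF20B and KIF23, had log2 fold changes of -1.23 to -0.87 with siTAZ #2 and of -0.086 to 0.53 with siTAZ #1 without passing.

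Of the 7 spindle microtubule proteins, 6 fell with siTAZ #2, beside 14.4% of all genes tested. In the direct comparison 5 were higher with siTAZ #1 than with siTAZ #2, beside 15.2%. TPX2, which activates AURKA on spindle microtubules, was at 207 and 208 CPM with siNTC, 231 and 259.7 CPM with siTAZ #1, and 124 and 110.0 CPM with siTAZ #2. It fell with siTAZ #2 (-0.83 ± 0.10, FDR 0.00322) and was at 0.24 ± 0.099, FDR 0.144 with siTAZ #1, opposite in sign to AURKA. NUSAP1, a protein that bundles spindle microtubules, was at 101 and 86.2 CPM with siNTC, 126 and 135 CPM with siTAZ #1, and 47.2 and 41.0 CPM with siTAZ #2. It rose with siTAZ #1 (0.48 ± 0.12, FDR 0.0413), the highest FDR of the 11 calls, lost in 9 of 18 alternatives, and fell with siTAZ #2 (-1.08 ± 0.12, FDR 0.00268). DLGAP5 and CKAP2 were the lowest of this role with siTAZ #1 (-0.29, FDR 0.380, and -0.33, FDR 0.123). HMMR, ASPM and TACC3 fell with siTAZ #2, with log2 fold changes of -1.30, -0.77 and -0.63.

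Of the 4 cytokinesis genes, 3 fell with siTAZ #2, beside 14.4% of all genes tested. All 4 were higher with siTAZ #1 than with siTAZ #2, beside 15.2%. ANLN, the anillin scaffold of the contractile ring, was at 297 and 319.8 CPM with siNTC, 313 and 362 CPM with siTAZ #1, and 123 and 113 CPM with siTAZ #2. The siTAZ #1 libraries overlapped siNTC while those of siTAZ #2 were the lowest pair, 2.62-fold below siNTC (-1.39 ± 0.10, FDR 0.000921). ECT2, the exchange factor that activates RhoA at the cleavage furrow, was at 65.4 and 52.5 CPM with siNTC, 70.3 and 115 CPM with siTAZ #1, and 53.9 and 42.7 CPM with siTAZ #2. It was the only gene of the 53 whose siTAZ #2 libraries overlapped those of siNTC (-0.29 ± 0.26, FDR 0.458), and its siTAZ #1 libraries were far apart. The difference of ECT2 between the siRNAs (0.94 ± 0.26, FDR 0.0440) was lost in 9 of 18 alternatives, among them those without either siNTC or either siTAZ #2 library. PRC1, which bundles the antiparallel microtubules of the central spindle, is named after its values were seen because it is the 11th gene called with siTAZ #1. It was at 217 and 206 CPM with siNTC, 268 and 283 CPM with siTAZ #1, and 110.4 and 122 CPM with siTAZ #2, and it rose with siTAZ #1 (0.38 ± 0.086, FDR 0.0303) and fell with siTAZ #2 (-0.87 ± 0.087, FDR 0.00194). RACGAP1, the partner of KIF23 in the central spindle complex, fell with siTAZ #2 (-1.10 ± 0.11, FDR 0.00201).

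All 4 chromosome structure genes fell with siTAZ #2, beside 14.4% of all genes tested. TOP2A, the topoisomerase that untangles sister chromatids, had the highest CPM of the 53 genes in siNTC and was at 419.6 and 426 CPM with siNTC, 294 and 317 CPM with siTAZ #1, and 143 and 126 CPM with siTAZ #2. It fell 3.14-fold with siTAZ #2 (-1.65 ± 0.093, FDR 0.000630) and 1.38-fold with siTAZ #1 (-0.47 ± 0.091, FDR 0.0192). MKI67, which encodes Ki-67, the coat protein of mitotic chromosomes used as a mark of proliferating cells, was at 196 and 207 CPM with siNTC, 280.3 and 309 CPM with siTAZ #1, and 116 and 102 CPM with siTAZ #2. It went up with siTAZ #1 (0.55 ± 0.10, FDR 0.0160) and down with siTAZ #2 (-0.89 ± 0.10, FDR 0.00269), so that Ki-67 and TOP2A mRNA had opposite signs with siTAZ #1. SMC4, a core subunit of condensin, was at 302 and 280.1 CPM with siNTC, 295 and 426 CPM with siTAZ #1, and 179.6 and 151 CPM with siTAZ #2. Its siTAZ #1 libraries were spread widely and its fall with siTAZ #2 (-0.81 ± 0.19, FDR 0.0251) was lost without any 1 of the siNTC or siTAZ #2 libraries. For SMC4, 22% of the exon bases overlap IFT80 and TRIM59 on the opposite strand, and the strand setting of the counting is not given in the sources used here. CDCA2 fell with siTAZ #2 (-1.14 ± 0.12, FDR 0.00199).

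The anaphase-promoting complex role held its activator CDC20, its E2 enzyme UBE2C and its substrates PTTG1 and CDCA3. All 4 genes fell with siTAZ #2, beside 14.4% of all genes tested. CDC20 was at 96.7 and 93.7 CPM with siNTC, 97.1 and 78.1 CPM with siTAZ #1, and 40.1 and 36.5 CPM with siTAZ #2. With siTAZ #1 its libraries lay on either side of siNTC, and with siTAZ #2 both were far below (-1.31 ± 0.13, FDR 0.00200). PTTG1, which encodes securin, the inhibitor of separase destroyed at anaphase, was at 81.5 and 86.4 CPM with siNTC, 72.5 and 65.1 CPM with siTAZ #1, and 29.4 and 26.7 CPM with siTAZ #2. It fell 2.99-fold with siTAZ #2 (-1.58 ± 0.12, FDR 0.000879) and was at -0.29 ± 0.11, FDR 0.131 with siTAZ #1. UBE2C and CDCA3 had log2 fold changes of -0.80 and -1.14 with siTAZ #2. With siTAZ #1 the call count in this role was 0 in either direction, with 1 lower at an unadjusted p under 0.05 and 0 by DESeq2 and by the exact test.

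FOXM1, the forkhead transcription factor that drives many of these genes in G2, was the only gene of the 53 with a negative difference of siTAZ #1 from siTAZ #2. It was at 201 and 192 CPM with siNTC, 97.5 and 87.8 CPM with siTAZ #1, and 105 and 114 CPM with siTAZ #2. Both siTAZ groups lay below siNTC without overlap, and the siTAZ #1 libraries were the lowest. FOXM1 fell 2.12-fold with siTAZ #1 (-1.08 ± 0.092, FDR 0.00174) and 1.79-fold with siTAZ #2 (-0.84 ± 0.092, FDR 0.00239), and the siRNAs differed by -0.24 ± 0.091, FDR 0.102, a difference that passed only without siTAZ #1 replicate 1 (FDR 0.0423, over all alternatives 0.0423 to 0.813). The study picked FOXM1 among genes lowered in these same samples, so its direction is not independent evidence. On GRCh37 it lies on chromosome 12 at 2966846 to 2986340 (- strand), and 15.9% of its exon bases overlap ITFG2 on the opposite strand.

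**Figure D3:**
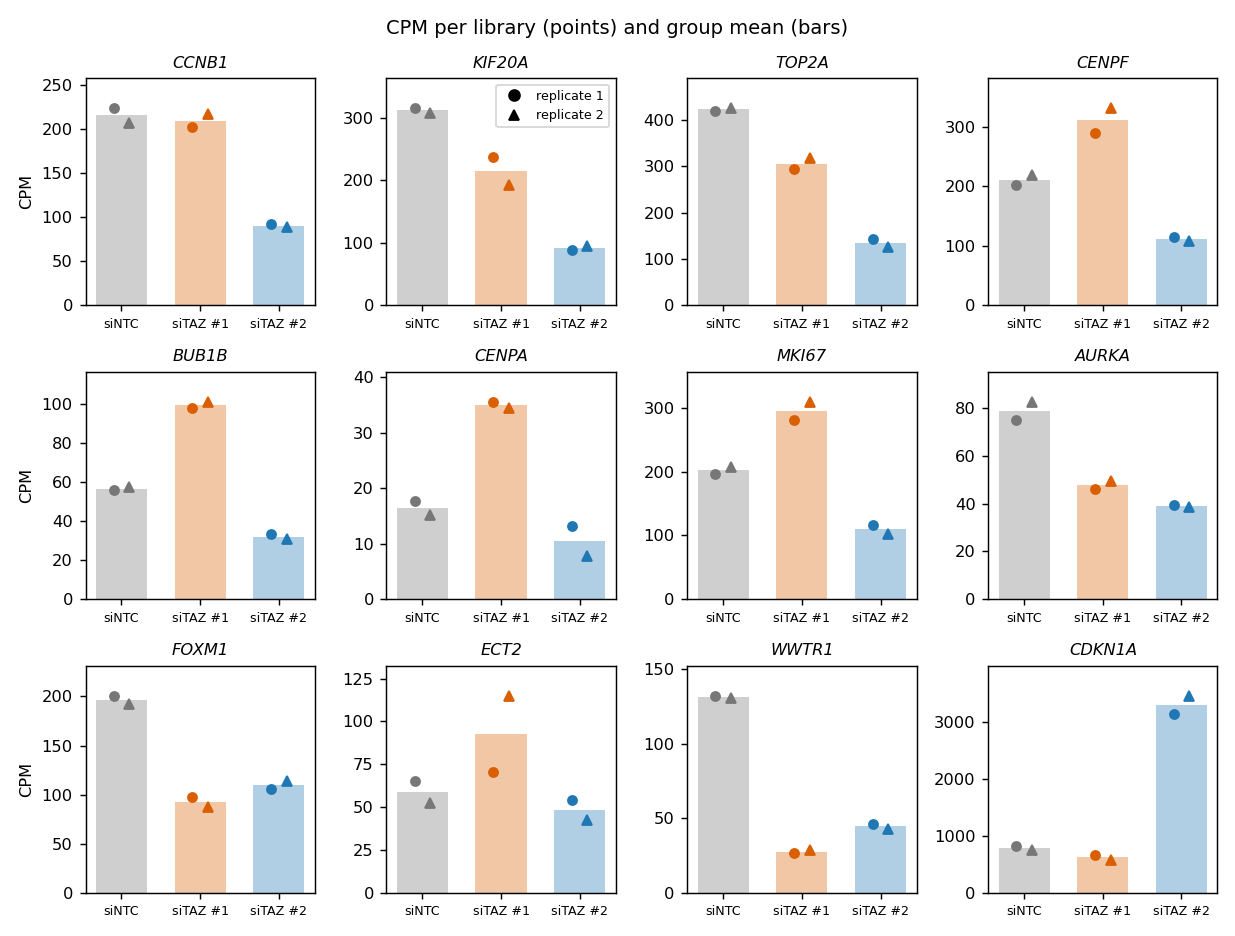
CPM of 10 mitotic genes, of WWTR1 (TAZ) and of CDKN1A in each library (circles replicate 1, triangles replicate 2), with bars at the group mean and each vertical axis starting at 0. CCNB1 was lower with siTAZ #2 alone, CENPF, BUB1B, CENPA and MKI67 were above siNTC with siTAZ #1 and below it with siTAZ #2, AURKA and FOXM1 were below it with both, and CDKN1A stood at 3143 and 3473 CPM with siTAZ #2.

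Genes with near-identical copies were examined, since counting could split their reads. AURKAPS1, a processed copy of AURKA, was at 40.7 and 36.7 CPM with siNTC, 20.8 and 13.9 CPM with siTAZ #1, and 10.6 and 13.7 CPM with siTAZ #2, and its order of groups was that of AURKA. PTTG2 and PTTG3P, copies of PTTG1, fell with siTAZ #2 (-1.63, FDR 0.00291, and -2.21, FDR 0.00172) and were at -0.21 and -0.46 with siTAZ #1. Their order of groups was that of PTTG1, and how reads were shared among them was not tested. With the copies' counts added to their parent, AURKA was at -0.85 ± 0.088 with siTAZ #1 (FDR 0.00305) and -1.20 ± 0.089 with siTAZ #2 (FDR 0.000866), and the siRNAs then differed by 0.35 ± 0.088 (FDR 0.0312, over all alternatives 0.0312 to 0.761). PTTG1 summed with its copies was at -0.33 ± 0.1 (FDR 0.0733) and -1.74 ± 0.11 (FDR 0.000635).

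Per length, the levels of the genes in control cells spanned a wide range. In siNTC, PTTG1 (117 CPM per kilobase of transcript), CKS2 (108), CCNB1 (106) and KIF20A (101) were the highest, and KIF14 (5.63), KIF18A (6.84) and KIF15 (7.10) the lowest. Kinesins stood at both ends of this order. The siTAZ #1 replicates were farther apart than the siNTC replicates for some genes: CCNA2 was at 77.0 and 113 CPM, MAD2L1 at 52.4 and 77.7 CPM and KIF11 at 93.3 and 138 CPM, with replicate 2 the higher in each. In all, 36 of the 53 genes were higher in replicate 2 with siTAZ #1, 30 with siNTC and 10 with siTAZ #2. The median log2 difference of replicate 2 from replicate 1 was 0.13 with siTAZ #1, 0.021 with siNTC and -0.19 with siTAZ #2. The siTAZ #2 replicates thus also differed, and the share over all genes was not computed.

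Median differences of other mitotic genes had the same signs and were smaller. These were 61 further genes, of the spindle, kinetochore, condensin and cytokinesis and others such as WEE1, CDC25A, CDC25B, LMNB1 and MAD2L2. Of the 61, 35 fell and 1 rose with siTAZ #2, and 3 fell and 13 rose with siTAZ #1. In the direct comparison 40 were higher and 1 lower with siTAZ #1 than with siTAZ #2. The medians were -0.67, 0.14 and 0.83. The 1 lower in the direct comparison was ZWILCH, a kinetochore protein. Over all genes tested, 14.4% fell and 14.1% rose with siTAZ #2, and 9.78% fell and 10.8% rose with siTAZ #1. In the direct comparison 15.2% of all genes tested were higher and 13.4% lower. Of the 61, 5 (KIF4A, NCAPH2, CENPI, CENPM and GTSE1) lie in the stretch of near-missing counts and none of them passed in any of the 3 comparisons. Over the 56 others the medians were -0.68, 0.25 and 0.94. CKAP2L, a spindle protein of dividing cells, was the lowest with siTAZ #2 (-1.45 ± 0.10, FDR 0.000817) and rose with siTAZ #1 (0.60 ± 0.10, FDR 0.0131), and NCAPD2, a condensin subunit, was at -1.31 ± 0.087, FDR 0.000693 and 0.13 ± 0.085, FDR 0.344. At the other end, CENPK, a kinetochore protein, rose with both siRNAs (1.21, FDR 0.0255, with siTAZ #2 and 1.40, FDR 0.0215, with siTAZ #1), and SKA2 did not pass with siTAZ #2 (0.54 ± 0.25, FDR 0.163). The core subunits of the anaphase-promoting complex, which are not made in a mitotic wave, had counts near those of all genes: of 13 tested, 2 fell and 2 rose with siTAZ #2, beside 14.4% and 14.1% of all genes tested, and 2 fell with siTAZ #1, beside 9.78%. ANAPC5 (-0.90) and ANAPC1 (-0.82) fell and ANAPC2 (0.51) and CDC23 (0.63) rose with siTAZ #2. Of 34 DNA replication genes, which act in the preceding S phase, 21 fell and 0 rose with siTAZ #2 (0 at an unadjusted p under 0.05). With siTAZ #1, 2 fell and 3 rose, beside 9.78% and 10.8% of all genes tested. The medians of the 34 with siTAZ #2 and siTAZ #1 were -0.58 and 0.13 (-0.58 and 0.15 without POLA1, which lies in the stretch and did not pass). ORC1 (-1.26, FDR 0.00907) and ORC6 (-1.15, FDR 0.0305), subunits of the origin recognition complex, were the lowest with siTAZ #2, and UNG and CCNE2 the highest (0.089 and 0.33), neither of which passed.

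**Figure D4:**
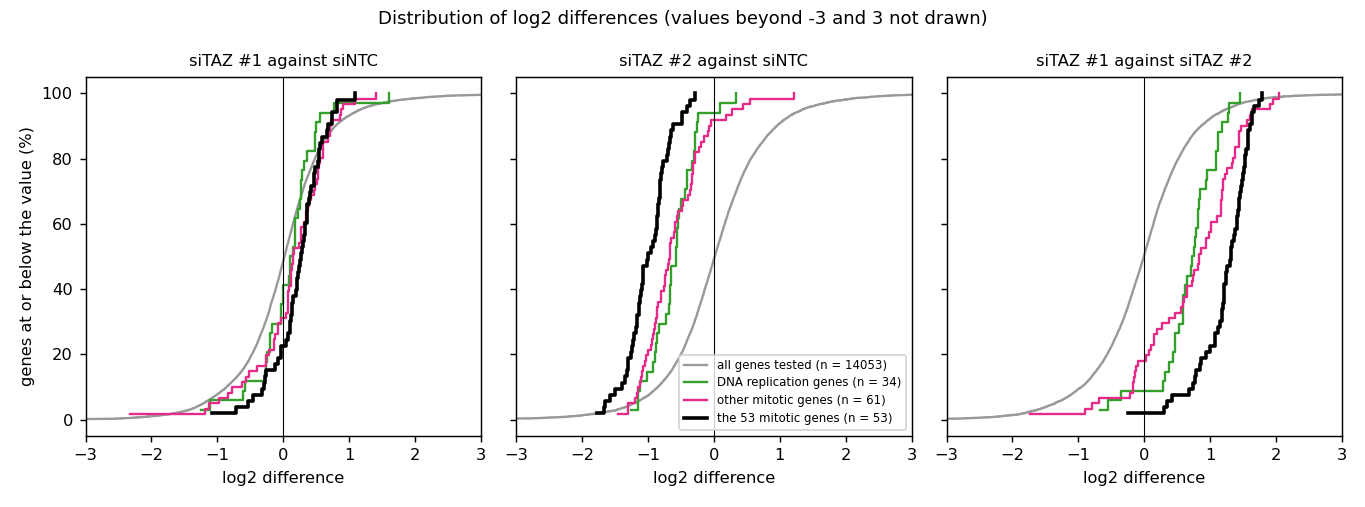
Cumulative percentage of genes at or below each log2 difference, for all 14053 genes tested (grey), 34 DNA replication genes (green), 61 other mitotic genes (pink) and the 53 mitotic genes (black), with 1 panel per comparison. The black curve lies wholly left of 0 with siTAZ #2 (median -1.0), a little right of the grey curve with siTAZ #1 (median 0.27) and right of it in the direct comparison (median 1.31).

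Regulators that act upstream of the mitotic wave were counted from a list of 23. With siTAZ #2, 8 fell and 2 rose, beside 14.4% and 14.1% of all genes tested. With siTAZ #1, 3 fell and 6 rose, beside 9.78% and 10.8%. In the direct comparison 12 were higher and 2 lower with siTAZ #1 than with siTAZ #2, beside 15.2% and 13.4%. CDKN1A, which encodes the CDK inhibitor p21, was at 826 and 763 CPM with siNTC, 665 and 579.8 CPM with siTAZ #1, and 3143 and 3473 CPM with siTAZ #2. It rose with siTAZ #2 (2.06 ± 0.11, FDR 0.000623), was at -0.35 ± 0.11, FDR 0.0697 with siTAZ #1, and differed between the siRNAs by -2.41 ± 0.11, FDR 0.000504. E2F2, an E2F that activates cell cycle genes, was at 9.89 and 7.19 CPM with siNTC, 13.3 and 10.4 CPM with siTAZ #1, and 2.38 and 2.11 CPM with siTAZ #2, and it fell with siTAZ #2 (-1.92 ± 0.27, FDR 0.00501). E2F8, an E2F that represses transcription late in the cycle, also fell with siTAZ #2 (-1.05 ± 0.21, FDR 0.0153), and E2F5, a partner of the pocket proteins in resting cells, rose with both siRNAs (1.13 ± 0.21, FDR 0.0120 with siTAZ #2 and 1.35 ± 0.21, FDR 0.00933 with siTAZ #1). The part of CDKN1A and of these factors in the levels of the 53 genes was not tested.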

How the data were processed

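Total RNA from 6 HFL-1 libraries was sequenced on Ion Proton. The authors' counts per gene, deposited without normalization, came from HTSeq 0.6.1 after alignment with TMAP (build hg19). The strand setting is not given in the sources used here. Of 23368 entries, 13 were dates in place of symbols and were left out. After filterByExpr and TMM normalization, edgeR 4.0.16 (R 4.3.3) was used for quasi-likelihood tests in 1 fit of all libraries with Benjamini-Hochberg adjustment over 14053 genes. A standard error is the log2 fold change divided by the root of F. DESeq2 1.42.0 and other settings were alternatives. The steps were also run on simulated counts. These held no stretch of near-missing counts and a smaller dispersion than the fit of all genes, so that run does not show how the steps perform here. Genes given per library were, by rule, the one with the most counts in each role, the 5 lowest and 5 highest with siTAZ #2, the 5 with the largest difference between the siRNAs, up to 10 called with siTAZ #1, FOXM1, AURKA and PTTG1, and 4 genes from each further list. The 53 genes and all lists were chosen with earlier results of these data known. Positions are from GENCODE on GRCh37, promoters from RefSeq on GRCh38.p14, taking the first entry of a gene. Each TAZ siRNA was transfected in duplicate per the study's methods. Whether the duplicates were separate experiments is not given in the sources used here, and p-values measure the spread between these libraries.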

Additional observations from a re-analysis of the deposited data

Results flagged for a closer look

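The responses of the mitotic genes to the siRNAs differed by the direct test between them. Of the 53 genes, 49 were higher and 0 lower with siTAZ #1 than with siTAZ #2 by edgeR's quasi-likelihood test, with 1 lower at an unadjusted p under 0.05 and 0 lower by DESeq2 and by the exact test. Of the 61 other mitotic genes, 40 were higher and 1 lower. Of the 34 DNA replication genes, 24 were higher and 1 lower. Of the 13 core subunits of the anaphase-promoting complex, 3 were higher and 2 lower, and of the 23 regulators, 12 were higher and 2 lower. Beside these lists, 15.2% of all genes tested were higher and 13.4% lower in this comparison. CDKN1A, the gene of the CDK inhibitor p21, had a log2 difference of siTAZ #1 from siTAZ #2 of -2.41 (FDR 0.000504), both siTAZ #1 libraries lying below both siTAZ #2 libraries. Groups of 2 libraries were too small to test a library for standing apart.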

How the results depend on the processing

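All 53 genes lay below 0 with siTAZ #2 under every alternative run, and 52 lay above 0 in the direct comparison. Leaving out libraries in turn, genes lower with siTAZ #2 numbered 27 to 51, genes lower and higher with siTAZ #1 1 to 6 and 0 to 19, and genes lower in the direct comparison 0 to 1. Each of these fits left 1 library in a group, and the share of all genes tested that passed moved as well. The counts thus cannot separate a change in the 53 genes from one over all genes tested. In the direct comparison, fewer genes were higher without either siNTC or either siTAZ #2 library, among the 53 and over all genes tested. Medians of the 53 ran from -1.11 to -0.94 with siTAZ #2, 0.21 to 0.32 with siTAZ #1 and 1.21 to 1.385 between the siRNAs. With siTAZ #1, 15 genes were higher by DESeq2 (28.3%, beside 14.8% of all genes tested) and 15 without the stretch of near-missing counts (28.3%, beside 15.7%). At an FDR under 0.1, 12 were higher (22.6%, beside 15.8%). The exact test on 4 libraries gave 1 lower and 0 higher, beside 3.02% and 3.63%. Causes of these differences were not tested, except that the looser FDR admits more genes. Over all genes tested, deviations of same-numbered libraries correlated at 0.0005, 0.0132 and -0.0949 between pairs of groups. With 1 difference per group, and near-missing counts in siTAZ #1 replicate 2, these values could not exclude a pairing of the libraries. The replicate block gave 2 lower and 4 higher with siTAZ #1, beside 5.86% and 6.18% of all genes tested. It gave 38 lower with siTAZ #2 (71.7%, beside 10.1%) and 46 higher in the direct comparison (86.8%, beside 11%). Signs turned only for genes near 0 with siTAZ #1. With an offset for GC content and transcript length, CCNB1 was at 0.022, CENPE at -0.16 and CDC20 at 0.071. With libraries left out in turn, CCNB1 ran from -0.10 to 0.0086, CENPE from -0.13 to 0.30, KIF2C from -0.018 to 0.22 and CDC20 from -0.29 to 0.029. Of the other values of named genes under alternatives, 1315 kept their direction and side of the threshold, 65 lost it and 43 gained it. Adding the copies' counts to AURKA and PTTG1 was chosen after seeing the data. With 2 libraries a group and 14053 genes tested, small changes of single genes were not detectable.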

Other observations

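Among the 44 genes with a promoter, the log2 fold change with siTAZ #2 had a median of -1.0 over the 29 with both CCAAT and a CHR word (-1.77 to -0.29) and of -1.12 over the 12 with only 1 of these motifs (-1.67 to -0.37). CDC25C, TACC3 and CKAP2, which had neither in the window searched, were at -1.35, -0.63 and -0.67. With siTAZ #1 the medians were 0.32, 0.30 and 0.046. These values are a description of motif letters, and no test was run on them.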
